A study of Rattus norvegicus with 15 samples.

Results

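The cluster that starts with miR-322 is a group of microRNAs (miRNAs) whose hairpins lie close together on the rat X chromosome. Its 6 members on the array, rno-miR-322, rno-miR-503, rno-miR-351, rno-miR-542-3p, rno-miR-542-5p and rno-miR-450a (the prefix for rat is left out below), were taken by their exact names from the 350 miRNAs measured. All 6 were among the 231 miRNAs that could be tested. Levels were read on 15 one-colour arrays, each holding RNA from a sciatic nerve sample of an adult male rat. There were 5 groups of 3 arrays: nerve without injury (day 0), and nerve taken 1, 4, 7 and 14 days after injury. The accounts of the injury conflict, one naming a resection with proximal tissue and the other a crush with tissue from the damaged site, so only the word injury is used here. The labels name no strain and do not say whether an array held 1 animal or a pool, so the p-values rest on differences among arrays that may be technical.

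A miRNA is cut from a hairpin, either arm of which can give a mature strand, and the bases at positions 2 to 8 of that strand, the seed, choose the messenger RNAs it represses. The cluster, whose human counterpart of miR-322 is called miR-424, is known for slowing the cell cycle: miR-322 and miR-503 belong to the extended miR-15/16 family, which represses D-type cyclins and the phosphatase CDC25A. Injury of a peripheral nerve makes Schwann cells leave their myelinating state and divide, while macrophages enter and fibroblasts multiply.

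The mature sequences of the 6 members are shown because their seeds divide the cluster into miRNAs with different targets. They are RefSeq's (build GRCr8), written 5′ to 3′, with the seed in capitals. All 6 names were matched to the table by arm, which for names without an arm (such as miR-322) rests on the naming convention.
miR-322: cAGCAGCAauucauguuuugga
miR-503: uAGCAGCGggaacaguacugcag
miR-351: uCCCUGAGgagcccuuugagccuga
miR-542-3p: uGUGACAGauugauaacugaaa
miR-542-5p: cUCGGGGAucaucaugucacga
miR-450a: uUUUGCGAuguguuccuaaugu

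miR-322 and miR-503 share AGCAGC at bases 2 to 7 and differ at base 8. Aligned from the 5′ end, 11 of 22 positions were identical. Of 693 mature miRNA names in the table, 5 carried the seed AGCAGCA, 1 AGCAGCG and 3 CCCUGAG, so miR-322 and miR-351 have seed relatives outside the cluster, shown here because their levels are compared further on.
miR-15b: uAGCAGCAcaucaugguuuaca
miR-16: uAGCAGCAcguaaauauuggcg
miR-195: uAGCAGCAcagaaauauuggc
miR-497: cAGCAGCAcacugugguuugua
miR-125a-5p: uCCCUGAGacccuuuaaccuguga
miR-125b-5p: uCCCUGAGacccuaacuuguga

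The 5 hairpins of the members span 5309 bases at chrX:137720933-137726241 of GRCr8, all on the minus strand, in the transcribed order Mir322, Mir503, Mir351, Mir542 and Mir450a1. The gaps between neighbours are 220, 659, 2861 and 1152 bases. RefSeq lists a sixth hairpin, Mir450b-1, between Mir542 and Mir450a1. It also lists a long non-coding RNA gene whose start coordinate lies between those of Mir542 and Mir351. The extent of that gene is not given here. Mir542 at chrX:137722176-137722254 and Mir322 at chrX:137726147-137726241 are printed whole because both of their arms were measured, with the mature strands in capitals. The array names the 3′ arm of Mir322 miR-322*, which is not one of the 6 members.
Mir542: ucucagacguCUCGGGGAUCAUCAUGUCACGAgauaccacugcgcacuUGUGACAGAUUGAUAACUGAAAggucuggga
Mir322: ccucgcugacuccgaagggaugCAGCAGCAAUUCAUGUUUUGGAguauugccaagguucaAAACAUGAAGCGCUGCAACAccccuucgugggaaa

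Each value below is a log2 level: background-subtracted intensity divided by the array's 75th percentile over the 164 miRNAs detected on all 15 arrays, so that 0 stands for that percentile. Levels are compared between days and not between miRNAs, since probes bind differently. Between 172 and 239 miRNAs were detected per array, and at least 200 on each array other than day 14 replicate 3. A bright control spot read 86.1 to 113 on the 3 day 1 arrays and 868 to 2320 on the others; its part in the day 1 values was not tested. Days 0, 1 and 4 each had a slide of their own, so slide and group cannot be told apart there, whereas day 7 shared its slide with day 14 replicates 1 and 2. Days 0 and 1 also each had a scan date of their own, so scan date and group cannot be told apart for them. Days 4 and 7 shared a scan date with day 14 replicates 1 and 2. Day 14 replicate 3 had its own slide and scan date. The 4 Schwann cell markers of the list (miR-338, miR-138, miR-204 and miR-211) were detected on every day 0 array, with a summed log2 level of 4.08 to 4.69. The muscle miRNA miR-1 was high on day 0 replicate 1, at 3.12, against -1.52 and -0.76 on the other two. In whole nerve tissue, fewer cells of a type and less RNA per cell cannot be told apart.

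All 6 members varied over the 5 groups in limma's F test with Benjamini-Hochberg adjustment over 231 miRNAs, as did 86.1% of all miRNAs tested. On day 1, 4 of the 6 members fell against uninjured nerve (miR-322, miR-542-3p, miR-542-5p and miR-450a), where 43.7% of the tested miRNAs fell, and 0 rose, where 16.9% did. On day 4, miR-503 and miR-351 rose and miR-450a fell, against backgrounds of 20.3% higher and 45.5% lower. On day 7, 4 members rose (miR-322, miR-503, miR-351 and miR-542-3p), and 0 fell, against backgrounds of 17.3% and 45.5%. On day 14 those 4 and miR-542-5p rose and 0 fell, against backgrounds of 16% and 50.6%. The F test and the rises of days 4, 7 and 14 include miR-351, which passed the detection filter only through days 4 and 7. The arrays of a day did not overlap those of day 0 for 4 members on day 1, 4 on day 4, 3 on day 7 and 4 on day 14, against 53.7%, 77.1%, 74.9% and 62.8% of the tested miRNAs. The members' median change was -0.78, 0.21, 0.44 and 0.44 on days 1, 4, 7 and 14, and the median over all 231 miRNAs was -0.26, -0.26, -0.32 and -0.37. Under the other 4 scalings the median over all miRNAs lay between -0.39 and -0.05 on day 1, -0.41 and 0.05 on day 4, -0.22 and 0.04 on day 7, and -0.12 and 0.02 on day 14. The share of tested miRNAs that rose was then 13.9% to 24.7%, 14.3% to 32%, 18.2% to 35.5% and 23.5% to 30.3%, and the share that fell 26.5% to 55%, 32% to 53.7%, 26.5% to 37.7% and 18.2% to 35.9%. The members that rose under those scalings numbered 0 on day 1, 2 to 4 on day 4, 4 to 6 on day 7 and 5 on day 14. Sizes also depended on the background correction: normexp in place of Agilent's subtraction gave smaller changes for most members. Its values are given beside the members' called results that they move by over 1.5 times. For miR-322* and miRNAs outside the cluster, changes in level are given without normexp values, so their dependence on this correction is not shown.

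**Figure D1:**
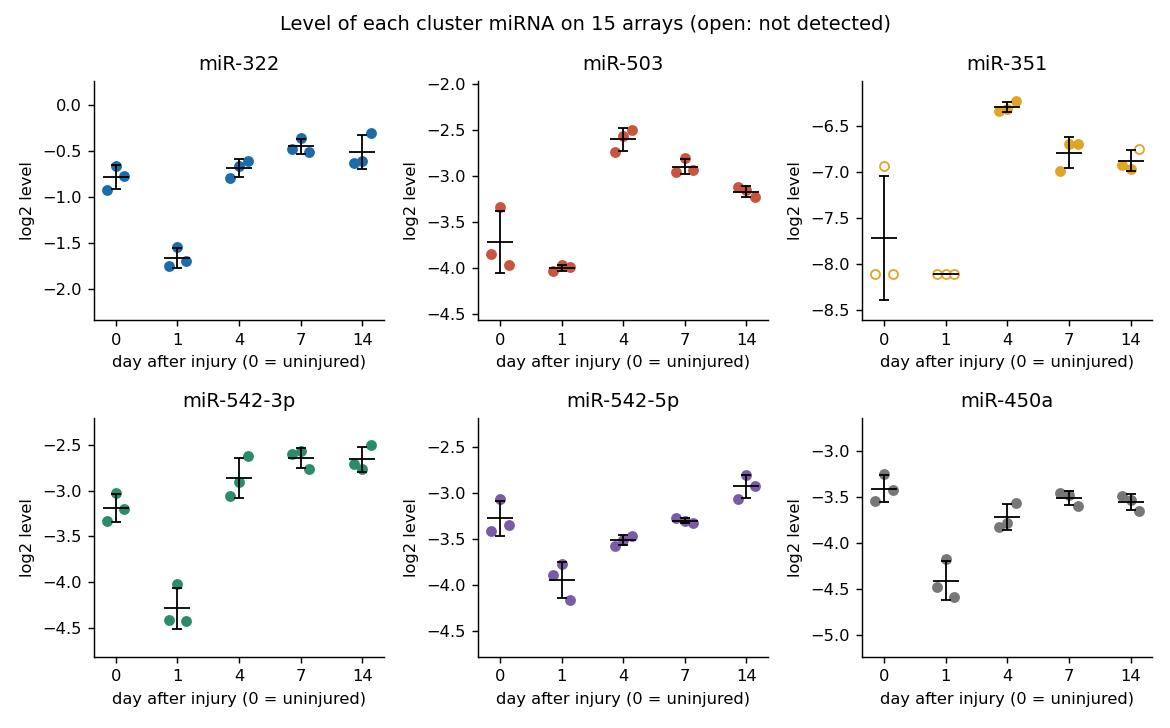
Log2 level (y axis) of each of the 6 cluster miRNAs by day after injury (x axis), 1 point per array with the mean and SD of 3 arrays; open points were not detected. miR-322, miR-542-3p, miR-542-5p and miR-450a dipped on day 1, whereas the highest means of miR-503 (-2.60) and miR-351 (-6.30) were on day 4.

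miR-322, the member with the seed of miR-15b and miR-16, read -0.92, -0.65 and -0.77 on the 3 day 0 arrays and -1.75, -1.54 and -1.70 on day 1. It read -0.79, -0.66 and -0.60 on day 4, -0.48, -0.35 and -0.51 on day 7, and -0.63, -0.61 and -0.30 on day 14. The 3 day 1 arrays were the lowest of all 15, day 4 overlapped day 0, and all arrays of days 7 and 14 lay above day 0. Against day 0 the level fell by 0.88 ± 0.11 (log2, SE, n = 3 per group) on day 1, a 1.85-fold drop (limma, Benjamini-Hochberg adjusted p = 3.04e-05). On day 4 it differed from day 0 by 0.10 ± 0.11 (limma, adjusted p = 0.454). The rises were 0.33 ± 0.11 on day 7 and 0.27 ± 0.11 on day 14 (limma, adjusted p = 0.0164 and 0.0441).

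The fall of miR-322 on day 1 passed under all 5 scalings and without any 1 array, whereas its later values were close to the limit of the test. The rises of days 7 and 14 passed under all 5 scalings but were lost without single arrays. On day 4 the change was 0.41, 0.38 and 0.37 and passed under 3 other scalings, was -0.06 without scaling, and passed without day 14 replicate 3 (0.24, limma adjusted p = 0.0242), which alters the scaling. The day 7 call was lost without day 0 replicate 1 (0.27, limma adjusted p = 0.0644), the array with high miR-1, or day 7 replicate 2 (0.29, adjusted p = 0.0669). The day 14 call was lost without any 1 of the 3 day 0 or the 3 day 7 arrays, day 1 replicate 3 or day 4 replicates 2 or 3, with changes of 0.20 to 0.28 and limma adjusted p from 0.0529 to 0.150. Without day 14 replicate 3, on which miR-322 was highest, it was 0.26 (limma adjusted p = 0.0374).

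miR-503, which differs from the miR-15/16 seed at base 8, read -3.84, -3.33 and -3.97 on day 0, and -4.03, -3.97 and -3.99 on day 1. Its values were -2.73, -2.56 and -2.50 on day 4, -2.95, -2.80 and -2.93 on day 7, and -3.12, -3.15 and -3.23 on day 14. Day 1 overlapped day 0, whose second array was the high one, and every array of days 4, 7 and 14 lay above every day 0 array. The change from day 0 was -0.28 ± 0.13 on day 1 (limma, adjusted p = 0.0860). It was 1.12 ± 0.13 on day 4, a 2.17-fold rise (limma, adjusted p = 9.12e-06), 0.82 ± 0.13 on day 7 (adjusted p = 0.000133) and 0.55 ± 0.13 on day 14 (adjusted p = 0.00297). These 3 rises passed under all 5 scalings and without any 1 array. With normexp background correction they were 0.58 and 0.34 on days 4 and 7, which passed, and 0.14 on day 14, which did not (limma adjusted p = 2.09e-05, 0.00166 and 0.101). The day 1 difference passed as a fall without day 0 replicate 3 (-0.41, limma adjusted p = 0.0207) and without scaling (-0.42).

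miR-351, with the seed of the miR-125 family, was near the detection limit and was not detected on any array of days 0 and 1. Its values were -8.11, -6.94 and -8.11 on day 0, where -8.11 is the floor set for low signals, and -8.11 on all 3 day 1 arrays. It read -6.34, -6.32 and -6.23 on day 4 and -6.99, -6.70 and -6.70 on day 7, detected on all 3 arrays each time. On day 14 it read -6.92, -6.97 and -6.75 and was detected on replicates 1 and 2. All day 4 arrays lay above day 0, whereas days 7 and 14 overlapped day 0 through its second array.

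Against the lowest detected signal on the day 0 arrays, or the miRNA's own value where higher, miR-351 was 2.71-fold higher on day 4. This ratio is not a lower bound. miR-351 was not detected at -6.94 on day 0 replicate 2, yet was detected at -6.99 on day 7 replicate 1. The ratio was 1.92-fold on day 7. On day 14 it was 1.81-fold over all 3 arrays, though it was not detected on replicate 3, and 1.73-fold over the other 2 arrays. The fitted changes, which use the common floor, were 1.42 ± 0.23, 0.93 ± 0.23 and 0.84 ± 0.23 (limma, adjusted p = 0.000134, 0.00343 and 0.00612). Only through days 4 and 7, where all 3 arrays detected it, did miR-351 enter the tests. Its p-values are therefore not independent of the filter. Without day 0 replicate 2 the fitted changes on days 7 and 14 were 1.60 and 1.51. The day 1 difference of -0.39 rests on that array, since all other arrays of days 0 and 1 lay at the floor. Of its 4 probes, the one with the strongest signal gave 1.49 on day 4, a second 0.73, and the other two 0.06 and 0, with signals that were mostly at or below 0. Taking the median over probes left 0.71 on day 7 and 0.36 on day 14 (limma, adjusted p = 0.124 and 0.433), and normexp -0.02 on both days. On day 4 normexp gave 0.14 (limma, adjusted p = 0.0221), against the fitted 1.42.

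miR-542-3p, known to repress the mitotic protein survivin, read -3.34, -3.03 and -3.20 on day 0 and -4.40, -4.02 and -4.42 on day 1. It read -3.06, -2.91 and -2.62 on day 4, -2.60, -2.57 and -2.77 on day 7, and -2.71, -2.76 and -2.51 on day 14. The day 1 arrays were the lowest of all, day 4 overlapped day 0 through its first array, and days 7 and 14 lay above day 0. It fell by 1.09 ± 0.14 on day 1, a 2.13-fold drop (limma, adjusted p = 3.31e-05), and rose by 0.55 ± 0.14 on day 7 and 0.53 ± 0.14 on day 14 (limma, adjusted p = 0.00367 and 0.00451). These 3 calls passed under all 5 scalings and without any 1 array. With normexp they also passed, at smaller sizes of -0.38, 0.25 and 0.22 (limma, adjusted p = 0.00186, 0.0148 and 0.0259). The day 4 change was 0.33 ± 0.14 (limma, adjusted p = 0.0526). It passed under 3 other scalings (0.64, 0.50 and 0.64) and without day 1 replicate 2 (0.33), day 4 replicate 1 (0.42) or day 14 replicate 3 (0.47), with limma adjusted p of 0.0300, 0.0277 and 0.00618.

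miR-542-5p comes from the other arm of the same hairpin. It read -3.42, -3.06 and -3.34 on day 0 and -3.89, -3.77 and -4.16 on day 1. Its values were -3.57, -3.51 and -3.46 on day 4, -3.27, -3.30 and -3.32 on day 7, and -3.06, -2.80 and -2.92 on day 14. Days 1 and 4 lay below day 0, day 7 lay within it, and day 14 lay above it, though the lowest day 14 array and the highest day 0 array both round to -3.06. It fell by 0.67 ± 0.12 on day 1 (limma, adjusted p = 0.000321), under all 5 scalings and without any 1 array, and by 0.23 with normexp (adjusted p = 0.0260). It was -0.24 ± 0.12 from day 0 on day 4 (limma, adjusted p = 0.0859), where the sign turned with the 75th percentile over all miRNAs (0.07) and a fall passed under quantile normalisation (-0.30), without scaling (-0.39) and without day 0 replicate 1 (-0.31, adjusted p = 0.0436). On day 7 it was -0.02 ± 0.12 from day 0 (limma, adjusted p = 0.853), and positive under 4 other scalings (0.08 to 0.34).

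On day 14 miR-542-5p rose by 0.35 ± 0.12 (limma, adjusted p = 0.0177). That rise passed under all 5 scalings and was lost without day 0 replicate 1 (0.28, limma adjusted p = 0.0682), day 0 replicate 3 (0.31, adjusted p = 0.0594) or day 14 replicate 2 (0.28, adjusted p = 0.0629), and with normexp (0.08).

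miR-450a, from the last hairpin of the cluster, read -3.54, -3.25 and -3.43 on day 0 and -4.48, -4.17 and -4.58 on day 1. It read -3.82, -3.78 and -3.56 on day 4, -3.45, -3.47 and -3.59 on day 7, and -3.48, -3.53 and -3.65 on day 14. The day 1 arrays were the lowest, day 4 lay just below day 0, and days 7 and 14 overlapped it. Its change on day 1 was -1.003 ± 0.119 (limma, adjusted p = 2.36e-05), a fall that passed under all 5 scalings and without any 1 array. With normexp the day 1 change was -0.33 (limma, adjusted p = 0.00138). The later changes were -0.31 ± 0.12, -0.10 ± 0.12 and -0.15 ± 0.12 (limma, adjusted p = 0.0327, 0.463 and 0.288).

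The day 4 fall of miR-450a was 0.00077 with the 75th percentile over all miRNAs. It was lost without day 0 replicate 2 (-0.29), day 0 replicate 3 (-0.32), day 4 replicate 1 (-0.26), day 4 replicate 2 (-0.28) or day 14 replicate 3 (-0.17), with limma adjusted p from 0.0510 to 0.236, and with normexp (-0.12). On days 7 and 14 its sign turned under the other 4 scalings (0.0038 to 0.26 and 0.02 to 0.24), and with normexp a fall passed on day 14 (-0.20, limma adjusted p = 0.0173).

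**Figure D2:**
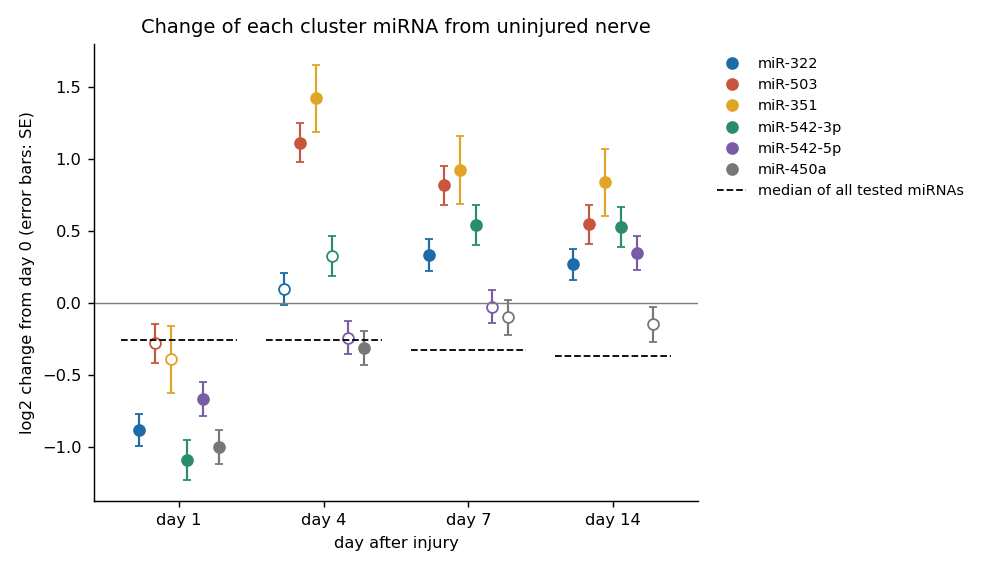
Log2 change from day 0 (y axis, with the SE of the limma model) of each cluster miRNA on days 1, 4, 7 and 14 (x axis); filled points passed the test and the dashed line is the median of all tested miRNAs. The points of miR-503 and miR-351 are the highest on day 4, and 5 of the 6 lie above 0 on day 14.

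Between consecutive times after injury, the step from day 1 to day 4 was the one in which members passed the test. All 6 rose and 0 fell, against backgrounds of 27.7% and 23.8% of tested miRNAs. Among them, miR-351 was not detected on day 1 and passed the detection filter only through days 4 and 7. The rises were 1.40 ± 0.13 for miR-503 (2.63-fold), 1.42 ± 0.14 for miR-542-3p (2.67-fold), 0.98 ± 0.11 for miR-322, 0.69 ± 0.12 for miR-450a and 0.43 ± 0.12 for miR-542-5p (limma, adjusted p from 3.73e-06 to 0.00875), and a fitted 1.81 ± 0.23 for miR-351 (adjusted p = 4.60e-05). For each member the day 4 arrays all lay above the day 1 arrays, a lack of overlap shared by 60.6% of tested miRNAs. With normexp the rises of miR-322 (0.75), miR-503 (0.64), miR-542-3p (0.57) and miR-450a (0.21) passed (limma, adjusted p of 0.0271 or less). The rise of miR-542-5p did not pass in the deposited value table (0.26) or with normexp (0.13), nor that of miR-351 with normexp (0.09).

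From day 4 to day 7, 0 of 6 members passed limma's adjusted test, against a background of 6.06%. At an unadjusted p below 0.05 there were 2, miR-322 (0.24 ± 0.11, adjusted p = 0.241) and miR-503 (-0.30 ± 0.13, adjusted p = 0.241), whose arrays did not overlap between the days, as for 50.6% of tested miRNAs. miR-351 differed by -0.50 ± 0.23 (limma, adjusted p = 0.252), which passed without day 0 replicate 2 (-0.49, adjusted p = 0.00870).

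From day 7 to day 14, 0 of 6 passed, against a background of 13.9%, and 1 had an unadjusted limma p below 0.05. This was miR-542-5p, higher by 0.37 ± 0.12 (limma, adjusted p = 0.0502), with all day 14 arrays above day 7, where 38.1% of tested miRNAs did not overlap. Within the slide that held day 7 and day 14 replicates 1 and 2, its difference was 0.28 and passed (limma, adjusted p = 0.0381). It also passed without day 0 replicate 1 (0.37), day 0 replicate 2 (0.37), day 1 replicate 2 (0.37), day 1 replicate 3 (0.37) or day 14 replicate 1 (0.44), with limma adjusted p from 0.0254 to 0.0411. On the same slide miR-322 differed by -0.27 and miR-503 by -0.33 (limma, adjusted p = 0.0620 and 0.0514).

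The days came in different orders by mean level. For miR-322 the order was day 7 (-0.44 ± 0.08, SD, n = 3), day 14 (-0.51 ± 0.18), day 4 (-0.68 ± 0.10), day 0 (-0.78 ± 0.13) and day 1 (-1.66 ± 0.11), with mean ± SD overlapping between neighbours other than day 0 and day 1. For miR-542-3p it was the same, from -2.65 ± 0.10 on day 7 to -4.28 ± 0.23 on day 1, and again the ranges of day 0 and day 1 alone were apart. miR-503 and miR-351 both ran from day 4 through days 7 and 14 to day 0 and day 1. The mean ± SD of miR-503 overlapped between days 0 and 1 (-3.71 ± 0.34 and -3.99 ± 0.03) and that of miR-351 also between days 7 and 14 (-6.80 ± 0.17 and -6.88 ± 0.11). For miR-542-5p the highest mean was on day 14 (-2.93 ± 0.13), followed by days 0 and 7, which overlapped (-3.27 ± 0.19 and -3.30 ± 0.02), day 4 and day 1. For miR-450a the order was day 0 (-3.41 ± 0.15), day 7, day 14, day 4 and day 1 (-4.41 ± 0.21), with day 1 alone outside its neighbour's range.

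Whether members moved unlike one another was tested on the log2 level minus that of miR-322 on the same array. A scaling by 1 factor per array cancels from this difference. It does not cancel where miR-351 lay at the floor, and quantile normalisation does not use 1 factor per array. Relative to miR-322, 2 of the other 5 members passed on day 1, 5 on day 4, 4 on day 7 and 3 on day 14, against backgrounds of 77.8%, 64.8%, 78.7% and 76.5% of the other 230 miRNAs. With the slide as a random block the counts were 0, 1, 1 and 0. On day 1 both calls, miR-503 and miR-351, were higher (background 76.5%) and 0 lower (1.3%). miR-351 was not detected on days 0 and 1, so the measured call was that of miR-503. On day 4 there were 3 higher (16.5%) and 2 lower (48.3%), on day 7 2 and 2 (11.3% and 67.4%), and on day 14 2 and 1 (10.9% and 65.7%). The higher counts of days 4, 7 and 14 each include miR-351, which was not detected on day 0 and passed the detection filter only through days 4 and 7.

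miR-503 minus miR-322 was -2.93 ± 0.26 on day 0 (SD, n = 3), -2.33 ± 0.08 on day 1, -1.91 ± 0.02 on day 4, -2.45 ± 0.03 on day 7 and -2.65 ± 0.24 on day 14. All arrays of days 1, 4 and 7 lay above day 0, and day 14 overlapped it. Relative to miR-322, miR-503 thus gained 0.60 ± 0.13 on day 1, 1.02 ± 0.13 on day 4 and 0.49 ± 0.13 on day 7 (limma, adjusted p = 0.00125, 1.92e-05 and 0.00506), and 0.28 ± 0.13 on day 14 (adjusted p = 0.0717). The first 3 of these passed without any 1 array. The day 14 difference passed without day 0 replicate 2 (0.41, limma adjusted p = 0.0147) or day 14 replicate 3 (0.42, adjusted p = 0.00829). With the slide as a random block, the day 1 and day 7 differences did not pass (0.60 and 0.34, limma adjusted p = 0.122 and 0.273). With normexp the day 4 difference was 0.49, which passed (limma, adjusted p = 0.000146), and that of day 7 was 0.06.

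miR-450a minus miR-322 was -2.63 ± 0.03 on day 0, -2.75 ± 0.13 on day 1, -3.04 ± 0.08 on day 4, -3.06 ± 0.08 on day 7 and -3.04 ± 0.27 on day 14. All arrays of days 4, 7 and 14 lay below day 0. The change relative to miR-322 was -0.41 ± 0.12, -0.43 ± 0.12 and -0.42 ± 0.12 on those days (limma, adjusted p = 0.00858, 0.00517 and 0.00683) and -0.12 ± 0.12 on day 1 (adjusted p = 0.368). The calls of days 4, 7 and 14 passed without any 1 array, though without day 14 replicate 3 that of day 14 was -0.26, and those of days 4 and 14 did not with the slide as a random block (limma adjusted p = 0.195 and 0.0710). With normexp the day 4 difference was -0.21 and did not pass (limma, adjusted p = 0.0618).

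miR-351 differed relative to miR-322 by 0.49, 1.33, 0.59 and 0.57 on days 1, 4, 7 and 14 (limma, adjusted p = 0.0432, 9.55e-05, 0.0195 and 0.0228), values that rest on its floor on days 0 and 1. On day 1 it lay at the floor while miR-322 fell. Without day 0 replicate 2 the values were 0.86, 1.99, 1.25 and 1.23. With the slide as a random block none of the 4 passed (limma, adjusted p = 0.448, 0.0735, 0.326 and 0.326), and normexp gave 0.05 on day 4, -0.30 on day 7 and -0.25 on day 14. The day 4 call passed without any 1 array. The day 1 call was lost without day 0 replicates 1 or 3, day 1 replicates 1 or 3, day 4 replicate 3, day 7 replicate 1 or day 14 replicates 2 or 3 (0.23 to 0.46). The day 7 call was lost without day 0 replicates 1 or 3 or day 7 replicates 2 or 3 (0.32 to 0.60), and the day 14 call without day 0 replicates 1 or 3 or day 14 replicate 1 (0.30 to 0.58).

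miR-542-5p changed relative to miR-322 by 0.22 ± 0.12, -0.34 ± 0.12, -0.36 ± 0.12 and 0.08 ± 0.12 on days 1, 4, 7 and 14 (limma, adjusted p = 0.102, 0.0202, 0.0127 and 0.540). The day 1 difference passed without day 1 replicate 3 (0.31, limma adjusted p = 0.0351) and with normexp (0.43, adjusted p = 0.000276). The day 4 call was lost without day 0 replicate 2 (-0.29), day 4 replicate 2 (-0.33) or day 4 replicate 3 (-0.32), and the day 7 call without day 7 replicate 2 (-0.31). With the slide as a random block neither passed (-0.34 and -0.47, limma adjusted p = 0.343 and 0.0988), and with normexp that of day 4 was -0.19 and did not pass. miR-542-3p differed relative to miR-322 by -0.21, 0.23, 0.21 and 0.26 on days 1, 4, 7 and 14 (limma, adjusted p = 0.0551, 0.0423, 0.0508 and 0.0204). In the deposited value table the day 1 and day 14 differences were -0.69 and 0.45 (limma, adjusted p = 9.57e-05 and 0.00202), and with normexp they were 0.28 and -0.0037. The calls of days 4 and 14 did not pass with the slide as a random block (limma, adjusted p = 0.455 and 0.288), nor that of day 4 with normexp (0.10). Its calls also moved with single arrays. Its day 1 difference passed without day 1 replicate 2 (-0.28) and, at -0.21, without day 4 replicate 3 or day 14 replicates 2 or 3. The day 4 call was lost without any 1 of the day 0 or the day 7 arrays, day 1 replicate 1, day 4 replicate 3 or day 14 replicate 1 (0.15 to 0.25). The day 7 difference of 0.21 passed without day 1 replicate 2, day 4 replicate 3 or day 14 replicates 2 or 3, and the day 14 call was lost without day 0 replicates 1 or 3 or day 14 replicate 1 (0.23 to 0.26).

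The arms of the Mir542 hairpin, printed above with both strands in capitals, were compared with each other in the same way. miR-542-3p minus miR-542-5p was 0.08, 0.03 and 0.14 on the day 0 arrays and -0.51, -0.25 and -0.26 on day 1. It was 0.51, 0.60 and 0.84 on day 4, 0.68, 0.73 and 0.55 on day 7, and 0.35, 0.04 and 0.41 on day 14. The day 1 arrays all lay below day 0 and those of days 4 and 7 above it, whereas day 14 overlapped day 0. Relative to miR-542-5p, miR-542-3p changed by -0.42 ± 0.12 on day 1, 0.57 ± 0.12 on day 4 and 0.57 ± 0.12 on day 7 (limma, adjusted p = 0.00900, 0.00133 and 0.00106), and by 0.18 ± 0.12 on day 14 (adjusted p = 0.180). The backgrounds of this comparison, which was chosen after the data were seen, were 60.4%, 60%, 60% and 77% of 230 miRNAs. The first 3 calls passed with the slide, the scan date or the replicate number as a block and without any 1 array, and that of day 1 did not pass with normexp (-0.15). No other group shared the slide of day 0, so a slide block cannot separate slide from day in these comparisons. Those of days 4 and 7 passed with normexp at 0.29 and 0.33 (limma, adjusted p = 0.00168 and 0.000606). The day 14 difference passed without day 14 replicate 2 (0.30, limma adjusted p = 0.0397).

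**Figure D3:**
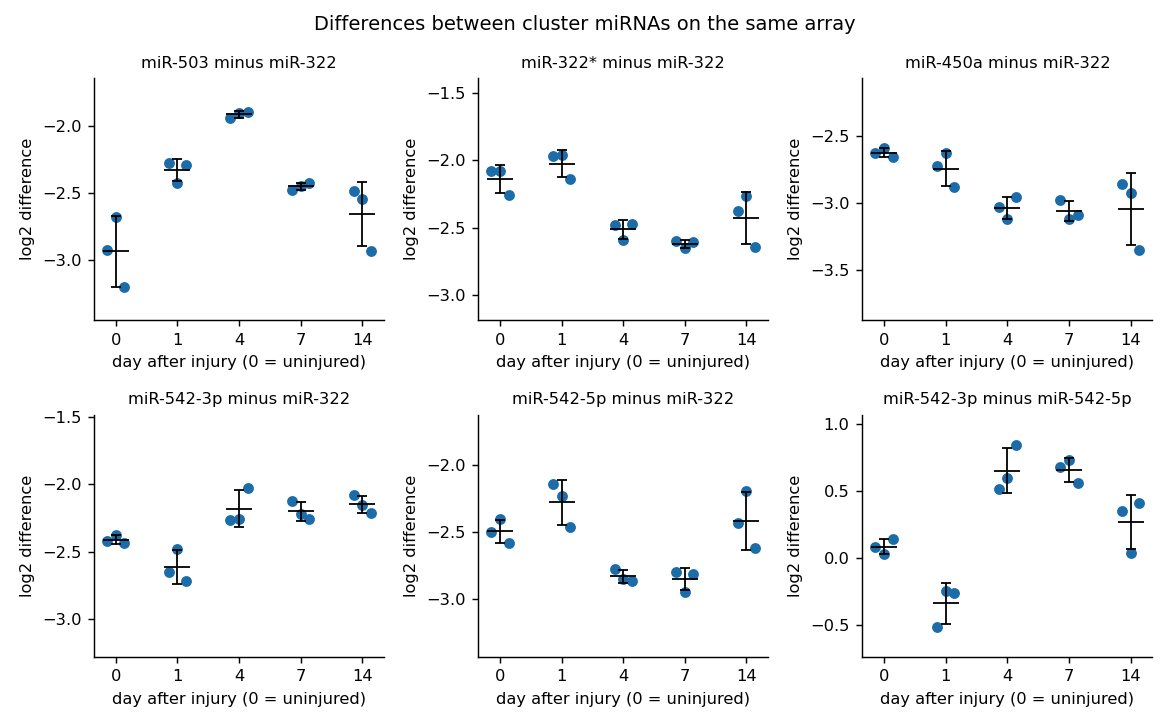
Log2 difference between pairs of cluster miRNAs on the same array (y axis) by day after injury (x axis), 1 point per array with the mean and SD of 3. The difference of miR-503 from miR-322 peaks at -1.91 on day 4, and that of the arms of Mir542 is lowest on day 1 (-0.34) and highest on days 4 and 7 (0.65 on both).

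The arms of Mir322 were compared likewise, again after the data were seen. miR-322* fell on day 1 (-0.77 ± 0.11, limma adjusted p = 6.55e-05) as miR-322 did, and it was -0.28, -0.15 and -0.02 from day 0 on days 4, 7 and 14, the first of which passed (limma, adjusted p = 0.0340). Under the other scalings these values ran from -0.43 to 0.04, -0.04 to 0.22 and 0.19 to 0.36. miR-322* minus miR-322 was -2.14 ± 0.10 on day 0 (SD, n = 3), -2.02 ± 0.10 on day 1, -2.51 ± 0.07 on day 4, -2.62 ± 0.03 on day 7 and -2.43 ± 0.20 on day 14. The change was 0.12 ± 0.10 on day 1 (limma, adjusted p = 0.309) and -0.37 ± 0.10, -0.48 ± 0.10 and -0.29 ± 0.10 on days 4, 7 and 14 (adjusted p = 0.00589, 0.000858 and 0.0215). Over all 230 miRNAs the median relative to miR-322 was 0.63, -0.36, -0.66 and -0.64 on days 1, 4, 7 and 14, and 48.3%, 67.4% and 65.7% passed as lower on days 4, 7 and 14. The day 7 call of miR-322* passed under all alternatives and without any 1 array, though a slide block cannot separate slide from day there. With the slide as a random block those of days 4 and 14 did not pass (-0.37 and -0.33, limma adjusted p = 0.196 and 0.167), and that of day 14 was lost without day 0 replicates 1 or 2 (-0.26 each) or day 14 replicate 3 (-0.18), with quantile normalisation (-0.15) and in the deposited value table (-0.18). The day 1 difference was -0.22 in the deposited value table and passed as 0.34 with normexp (limma, adjusted p = 0.151 and 0.00130).

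Of the seed relatives outside the cluster, miR-15b alone rose under the scaling used here. The counts of rises and falls among miR-15b, miR-16, miR-195 and miR-497 were 0 and 2 on day 1, 1 and 3 on day 4, 1 and 3 on day 7, and 1 and 1 on day 14, beside the shares of all tested miRNAs that rose (16.9%, 20.3%, 17.3% and 16%) and fell (43.7%, 45.5%, 45.5% and 50.6%). miR-15b rose by 0.68, 0.71 and 0.59 (SE 0.10 each) on days 4, 7 and 14 (limma, adjusted p = 7.15e-05, 4.68e-05 and 0.000308), under all 5 scalings, and was 0.17 from day 0 on day 1, where miR-322 fell. miR-195 fell by 0.65, 0.81 and 0.69 on days 1, 4 and 7 and miR-497 by 0.46, 0.55 and 0.44 (limma, adjusted p of 0.00114 or less). On day 7 the fall of miR-195 passed under 3 of 5 scalings and that of miR-497 under 4, and on day 14 miR-195 was -0.30 here and positive under the other 4. miR-497 was 0.05 on day 14 and passed as a rise of 0.23 to 0.43 under the other 4. miR-16 changed sign with the scaling on days 4, 7 and 14, and passed as a rise on day 4 under 2 of the 5 and on day 14 under 1. Set against miR-322 on the same array, miR-15b was higher by 1.05 ± 0.11 on day 1 (limma, adjusted p = 2.38e-06) and by 0.59, 0.38 and 0.32 on days 4, 7 and 14, while miR-195 was lower by 0.91 and 1.03 on days 4 and 7.

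**Figure D4:**
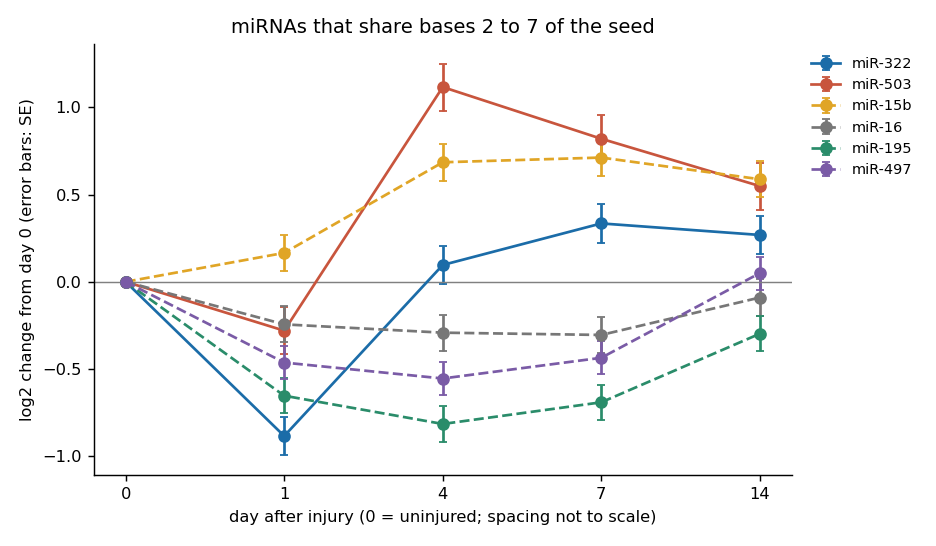
Log2 change from day 0 (y axis, with the SE of the limma model) of the 6 miRNAs with AGCAGC at bases 2 to 7, by day after injury (x axis, not to scale); solid lines are the cluster miRNAs. On day 4 miR-503 (1.12) and miR-15b (0.68) lie above 0 and miR-195 (-0.81) and miR-497 (-0.55) below it.

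The relatives of miR-351 did not share its rise. miR-125b-5p fell by 0.37, 0.78, 1.00 and 1.03 on days 1, 4, 7 and 14 (limma, adjusted p = 0.0408, 0.000341, 4.24e-05 and 4.33e-05), the last 3 under all 5 scalings and the first under 2. miR-125a-5p fell by 0.37 on day 1 (limma, adjusted p = 0.0115) and did not pass later (-0.26, -0.25 and -0.18). Short probes can take up signal from such relatives, which was not tested.

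Other miRNAs of cell cycle control were counted from lists. Of 10 miRNAs of the miR-17-92 cluster and its paralogs, which favour division, 5, 8, 8 and 8 rose on days 1, 4, 7 and 14, and 0, 1, 1 and 0 fell, beside the same shares of all tested miRNAs as above. miR-20a rose by 0.39, 0.98, 0.77 and 0.73, and miR-18a, with the largest rise of the list on day 4, by 1.68, 2.61, 2.05 and 1.37. The pair miR-221 and miR-222, known to lower the inhibitor p27 and so to favour division, rose on each day, by 2.03 ± 0.10 and 2.19 ± 0.19 on day 4. Of the p53-induced miR-34 family, miR-34b and miR-34c rose on days 4, 7 and 14 (1.39 and 2.04 on day 4), and miR-34a was -0.40 from day 0 on day 14 (limma, adjusted p = 0.0157) but -0.04 to 0.03 under the other 4 scalings, where it did not pass. On day 1, when 4 cluster members fell, miR-17-5p, miR-18a, miR-19b, miR-20a, miR-93, miR-221, miR-222 and miR-34c passed as rises. Of these, miR-18a, miR-221 and miR-222 passed under all 5 scalings. The rises of miR-19b, miR-20a, miR-93 and miR-34c passed under 4 of 5, and that of miR-17-5p under 3 of the 4 that held it.

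Over the 15 arrays, the 15 pairs of cluster members had a median Pearson r of 0.79 in log2 level, from 0.416 to 0.986, beside a median of 0.17 over the 26565 pairs of tested miRNAs. These values are descriptions: the arrays share days, slides and the scaling. The closest pairs were miR-322 with miR-542-3p (0.986), whose hairpins are not neighbours, and miR-503 with miR-351 (0.975), whose hairpins are. The weakest was miR-503 with miR-542-5p (0.416). Values of r for miR-351 rest in part on the floor, at which it lay on most arrays of days 0 and 1. Outside the members, miR-322 and miR-542-3p were most like miR-199a-5p (0.943 and 0.965) and miR-214 (0.917 and 0.941). miR-503 was most like miR-500 (0.917) and miR-674-3p (0.906), miR-351 like miR-34b and miR-500 (0.859 each), miR-542-5p like miR-322* (0.922) and miR-181b (0.888), and miR-450a like miR-199a-3p (0.970) and miR-322* (0.968).

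miR-199a-3p, miR-199a-5p and miR-214 are on the list of smooth muscle and fibroblast markers, with miR-143 and miR-145, so the summed level of that list is given beside the cluster. All 5 were detected on every array of each group. The sum ranged from 3.32 to 3.52 on day 0, 2.85 to 3.01 on day 1, 3.11 to 3.24 on day 4, 3.32 to 3.43 on day 7 and 3.28 to 3.35 on day 14. Its lowest values were on day 1, as were those of miR-322, miR-542-3p, miR-542-5p and miR-450a. On day 1, 1 of the 5 rose and 3 fell, beside 16.9% and 43.7% of all tested miRNAs, and on day 4, 2 rose and 3 fell, beside 20.3% and 45.5%. The summed Schwann cell markers ranged from 3.47 to 3.88 on day 1, 3.13 to 3.36 on day 4, 3.15 to 3.29 on day 7 and 3.36 to 3.80 on day 14, with miR-211 not detected on any day 1 array. The endothelial pair miR-126 and miR-126* summed to 1.66 to 1.78 on day 0, 1.12 to 1.33 on day 1, 1.45 to 1.59 on day 4, 1.47 to 1.57 on day 7 and 1.17 to 1.53 on day 14. The 5 leukocyte markers ran from 0.69 to 0.94 on day 0 and from 1.66 to 2.09 on day 1, with 1.52 to 1.69, 1.54 to 1.68 and 1.14 to 1.49 afterwards. Of these 5, 3 rose on each day, and 0, 1, 1 and 1 fell on days 1, 4, 7 and 14. Of the 4 Schwann cell markers, 3, 3, 3 and 4 fell and 0 rose. Of the endothelial pair, 2, 1, 1 and 2 fell and 0 rose. Of all tested miRNAs, 16.9%, 20.3%, 17.3% and 16% rose and 43.7%, 45.5%, 45.5% and 50.6% fell. The part of such shifts between cell types in the values of the cluster was not tested.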

How the data were processed

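The intensity values come from 15 array files as deposited, written by Agilent's Feature Extraction software, version 10.7.3.1 per the file headers, which subtracted background and did not scale arrays to each other. Detection and outlier flags (0 or 1) are the software's, from the same deposited files. The authors' table of log2 values, whose normalisation is not given in the sources used here, served only as an alternative.

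Control and outlier spots were dropped. Intensity was averaged per probe, then per miRNA, divided by the 75th percentile over the 164 miRNAs detected on all 15 arrays, raised to a floor of 0.00362 (log2 -8.11, the median over arrays of the lowest detected value) and log2-transformed. A miRNA entered the tests if all 3 arrays of any group detected it, which 231 did. limma 3.58.1 (R 4.3.3) fitted a mean for each of the 5 groups (residual degrees of freedom 10, prior 3.28). Tests were two-sided, with Benjamini-Hochberg adjustment over all tested miRNAs and a threshold of 0.05. Errors are model SEs with n = 3 per group unless SD is written; only 3 arrays per group limit the precision. The other 4 scalings were the 75th percentile over all miRNAs, quantile, none and the authors' table; 8 further alternatives concerned background (normexp, offset 50, on median spot signals, since mean signals were not used here), the summary over probes, the filter and blocks. In simulated data for day 4 against day 0 (231 miRNAs, 60 of them changed), limma found 80.2% of miRNAs changed 1.5-fold, 93.5% of those changed 2-fold and 98.5% of those changed 4-fold, with 3.46% of calls false. The simulated noise was independent and normal, without slide effects or a floor. These rates are therefore not error rates of the calls reported here.

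Members and lists were chosen with earlier results of these data known. Named were all members, the other arm of Mir322, seed relatives, the cell cycle and marker lists, and for each member the 3 outside miRNAs of highest r. Python 3.11.15, pandas 2.3.3, statmod 1.5.0 and matplotlib 3.10.9 were also used.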

Additional observations from a re-analysis of the deposited data

How the results depend on the processing

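Under the 12 alternatives and 15 omissions of 1 array, the members that passed were counted in either direction. The counts for day 1 (4 of 6, falls in the main fit) and day 7 (4 of 6, rises) stayed within 1.5 times. So did those for day 1 to day 4 (6 of 6, rises) and the F test (6). Ranges over omissions were 4 to 5 for day 1, 3 to 4 for day 7 and 6 to 6 for day 1 to day 4. The cause of the shifts below was not tested. On day 4 the count of 3 became 6 under quantile normalisation (4 rises and 2 falls) and 5 under the deposited values (4 and 1). It was 2 to 4 over omissions. On day 14 the count of 5 became 3 with normexp, including the fall of miR-450a (3 to 5 over omissions, with 3 without day 0 replicate 1 or 3). From day 4 to 7 the count of 0 became 2 with quantile normalisation and 1 without scaling, with normexp or with total gene signal (0 to 1). From day 7 to 14 the 0 became 2 with quantile normalisation and 1 without scaling, under the 75th percentile over all miRNAs, the deposited table, total gene signal, detection on all 15 arrays, the slide block, the replicate block or within the shared slide (0 to 1). Relative to miR-322 on day 1 the count of 2 became 5 with normexp, 1 with the median over probes, 0 with slide or scan date as a block and 1 with the replicate block (1 to 3). On day 4 the 5 became 1 with normexp, 1 with the slide block and 3 with the scan date block (3 to 5). On day 7 the 4 became 1 with either block (2 to 5), and on day 14 the 3 became 1 with total gene signal and 0 with either block (1 to 4).

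Signs turned as follows. With normexp, miR-351 was 0.050, -0.021 and -0.019 on days 1, 7 and 14 and 0.0021 from day 7 to 14. Relative to miR-322, normexp gave 0.28 for miR-542-3p and 0.34 for miR-450a on day 1, -0.30 for miR-351 and -0.025 for miR-542-3p on day 7, and -0.084 for miR-503, -0.25 for miR-351, -0.0037 for miR-542-3p and -0.15 for miR-542-5p on day 14. miR-322* relative to miR-322 on day 1 was -0.22 in the deposited table and -0.032 with total gene signal. With the 75th percentile over all miRNAs, miR-542-5p was 0.074 and miR-450a 0.00077 on day 4. Under that scaling, quantile, none and the deposited table, miR-542-5p was 0.34, 0.13, 0.080 and 0.16 on day 7, and miR-450a 0.26, 0.020, 0.0038 and 0.030 on day 7 and 0.21, 0.020, 0.24 and 0.045 on day 14. Without scaling, miR-322 was -0.056 on day 4, and from day 7 to 14 miR-322 was 0.21, miR-503 0.0082, miR-351 0.19, miR-542-3p 0.26 and miR-450a 0.23. For that step miR-351 was 0.14 with quantile normalisation, miR-542-3p 0.0075 with total gene signal and miR-450a 0.015 in the deposited table. Over omissions of 1 array, signs turned for miR-542-5p on day 7 (-0.10 to 0.14), miR-450a on day 7 (-0.17 to 0.060), miR-542-3p from day 7 to 14 (-0.16 to 0.036) and miR-542-5p relative to miR-322 on day 14 (-0.032 to 0.18).

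Replicate numbers did not pair the arrays: over 30 same-number pairs the correlation of deviations ran from -0.78 to 0.59 (median -0.05), and 5 of 15 arrays correlated best with their own number. With the number as a replicate block, miR-542-3p passed on day 4 (0.33) and miR-542-5p from day 7 to 14 (0.37), while relative to miR-322 miR-351 on day 1 (0.49) and miR-542-3p on day 4 (0.23) did not. miR-351 lay at or near background, so its sizes are the least certain.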
